A study of Danio rerio with 6 samples.

Results

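The immunoglobulin heavy and light chain genes of zebrafish kidney marrow are described here across 6 bulk RNA sequencing libraries. They are the rows of the deposited table whose gene symbol begins with ighv, ighj or igic, begins with igl and a digit, or equals ighm, ighd or ighz, with letter case ignored. The rule found 60 of 32057 genes: 39 heavy chain variable segments, 7 heavy chain joining segments, 2 heavy chain constant genes (ighm and ighd), 8 light chain variable segments and 4 light chain constant genes. No row bore the symbol ighz. The heterozygous pools came from adult fish heterozygous for rad21nz171, a nonsense mutation in exon 8 of rad21a, which encodes a subunit of the cohesin ring. The wild-type pools came from wild-type siblings out of crosses between heterozygotes, and the labels name no other allele or treatment. Each genotype had 3 libraries, each made from the whole kidney marrow of 3 adult fish pooled, so differences between single fish cannot be seen.

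An antibody or B cell receptor is built of heavy and light chains, each with a variable part that binds antigen and a constant part. In a developing B cell the Rag recombinase joins a variable, a diversity and a joining segment of the heavy chain locus, and a variable and a joining segment of a light chain locus, and the assembled exon is spliced to a constant region. In fish the kidney marrow is where B cells are made, and it also holds antibody-secreting cells. IgM, whose heavy chain is ighm, is the main class in the circulation, and IgD, with ighd, is a second class from the same locus. In zebrafish the joining segments named ighj2 belong to the mu region and those named ighj1 to the zeta region, and light chains come from several separate clusters, among them igl1, igl3, igl4 and the iota gene igic1s1.

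The libraries differed in more than genotype. Markers of neutrophils (5 rows found) summed to 49543 TPM (a transcript level scaled for gene length and to the same total in each library) in heterozygous pool 1, and in none of the other 5 pools above 23361 or below 15708 TPM. Egg markers (11 rows) gave 108, 58.5 and 2.56 TPM in heterozygous pools 1 to 3, against 114, 7365 and 1897 TPM in wild-type pools 1 to 3. Interrenal markers (9 rows) summed to 97.8, 734 and 965 TPM in the heterozygous pools and to between 138 and 260.1 TPM in the wild-type pools. In heterozygous pool 1 and wild-type pools 1 and 3 most of this was fdx1, at 88.3, 143 and 97.9 TPM. The rows differed in direction. STAR had 375 and 561 TPM in heterozygous pools 2 and 3 and at most 1.33 TPM elsewhere. A CYP11A1 row (ENSDARG00000002347) had 107 and 30.6 TPM in wild-type pools 2 and 3 and at most 3.48 TPM elsewhere. Skeletal muscle markers (19 rows) summed to between 12.9 and 24.7 TPM in the heterozygous pools and between 46.2 and 86.6 TPM in the wild-type pools. Erythroid markers (9 rows) summed to 14083, 41666 and 31250 TPM in the heterozygous pools, against 53811, 13594 and 26089 TPM in the wild-type pools. The mutated gene, rad21a, had 67.4, 61.6 and 62.0 TPM in the heterozygous pools, against 110.1, 73.9 and 108 TPM in the wild-type pools (limma adjusted p = 0.30). What these differences contribute to the immunoglobulin values was not tested, other than by leaving libraries out. Markers of the labelled tissue were present in every library, with neutrophil, macrophage and erythroid sums of at least 15708, 624 and 13594 TPM.

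Immunoglobulin transcripts as a whole lay higher in every heterozygous pool than in any wild-type pool. All 60 rows together gave 2514, 666 and 916 TPM in heterozygous pools 1, 2 and 3, against 174, 302 and 624 TPM in wild-type pools 1, 2 and 3. They held 0.251%, 0.0666% and 0.0916% of all TPM in the heterozygous pools and 0.0174%, 0.0302% and 0.0624% in the wild-type pools. Heterozygous pool 1 stood far above the rest, and the gap between the lowest heterozygous pool and the highest wild-type pool was small. In 43 of the 56 members detected anywhere, heterozygous pool 1 was the highest of the 6 libraries, and wild-type pool 3 was the highest wild-type pool for 42 of the 55 detected in that genotype. In bulk samples more B cells and more immunoglobulin RNA per B cell cannot be told apart.

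**Figure D1:**
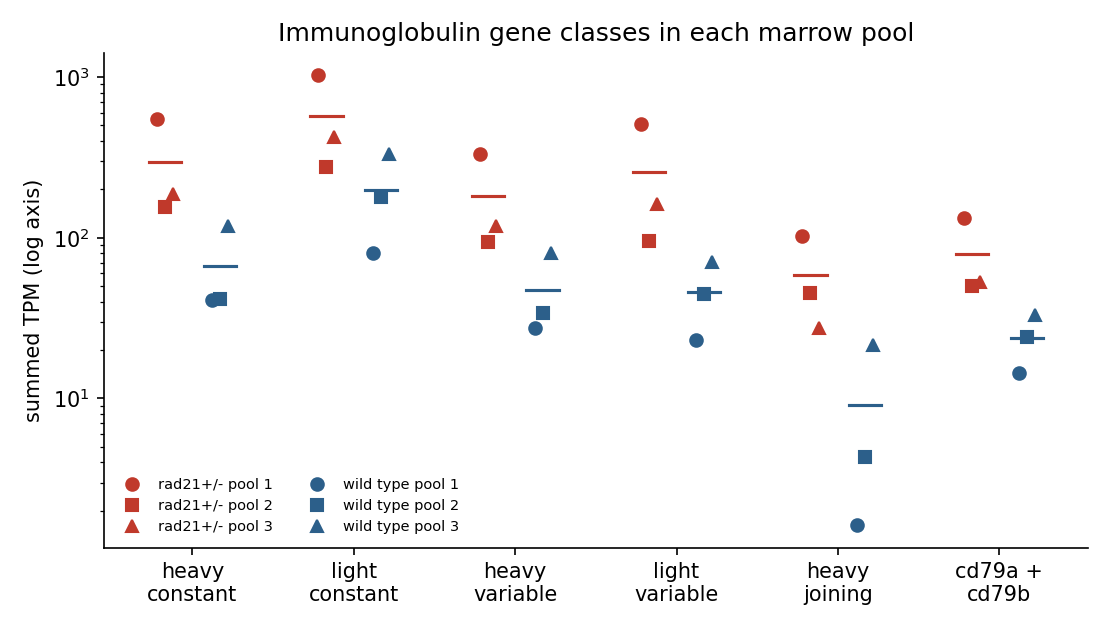
Summed TPM of each class of immunoglobulin gene, and of the B cell receptor partners cd79a and cd79b, in each pool on a log axis (rad21+/- in red left of wild type in blue, horizontal bars are means). The 3 heterozygous pools lie above the 3 wild-type pools in every class other than light chain constant genes, where wild-type pool 3 (332 TPM) lies above heterozygous pool 2 (275 TPM).

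Constant regions were examined first, since every antibody transcript carries one of them. ighm, the IgM heavy chain, averaged 293 ± 215 TPM in the heterozygotes and 65.6 ± 44.0 TPM in the wild type (SD, n = 3 each), a 4.47-fold difference of means with no overlap between the groups. Its log2 fold change, here and below on the log2(TPM + 1) scale, was 2.10 with a 95% interval from 0.66 to 3.53, which after adjustment over all tested genes missed the threshold of 0.05 (limma adjusted p = 0.21). ighd, the IgD heavy chain, had 4.29, 1.46 and 1.99 TPM in the heterozygous pools, against 0.891, 1.27 and 2.25 TPM in the wild-type pools, so the groups overlapped. Its log2 fold change was 0.49 (95% interval from -0.33 to 1.32, limma adjusted p = 0.53).

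The balance of both heavy chain classes differed between the pools. ighm was 126, 106 and 92.9 times the level of ighd in the heterozygous pools, against 45.1, 31.7 and 51.7 times in the wild-type pools. These ratios did not overlap, and each is taken within a library, so the fixed TPM total does not enter. At the low level of ighd a few reads could move the ratio, and TPM does not show how many reads there were. The gene ight, named for the tau class that zebrafish work calls zeta, lies outside the rule and was looked at after its values were seen. It averaged 4.95 ± 0.393 TPM in the heterozygotes and 1.62 ± 0.701 TPM in the wild type (SD, n = 3 each, limma adjusted p = 0.079). Its groups did not overlap, while its ratio to ighm ran from 0.00955 to 0.0292 in the heterozygotes and from 0.0113 to 0.0603 in the wild type, which overlapped.

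Among the light chain constant genes, igic1s1 and igl3c3 did not overlap between the genotypes, and igl1c3 and igl4c1 did. igic1s1, the iota light chain, averaged 238 ± 193 TPM in the heterozygotes and 32.5 ± 18.4 TPM in the wild type (SD, n = 3 each), with a log2 fold change of 2.69 (95% interval from 1.13 to 4.26, limma adjusted p = 0.14). igl3c3 had 106, 21.9 and 28.1 TPM in the heterozygous pools, against 4.53, 10.1 and 17.9 TPM in the wild-type pools (log2 fold change 1.98, limma adjusted p = 0.26). igl1c3, the most abundant of the 4 on average, had 448, 150.3 and 227 TPM in the heterozygous pools, against 59.99, 99.6 and 247 TPM in the wild-type pools. Wild-type pool 3 was above the lower 2 heterozygous pools for igl1c3, and the 95% interval of its log2 fold change ran from -0.31 to 2.54 (limma adjusted p = 0.43).

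igl4c1 was the constant gene whose mean was lower in the heterozygotes. It had 12.6, 4.83 and 8.45 TPM in the heterozygous pools, against 1.46, 37.1 and 16.2 TPM in the wild-type pools (log2 fold change -0.37, 95% interval from -2.65 to 1.92, limma adjusted p = 0.87). Its highest libraries, wild-type pools 2 and 3, were those with 7365 and 1897 TPM of egg markers, and each of the 11 egg rows was highest in wild-type pool 2. Of these rows only figla was listed at 0 in any library, namely heterozygous pool 3. Without wild-type pool 2 the log2 fold change of igl4c1 was 0.48, and without both egg-rich pools it was 1.89. The variable segments of the same cluster (igl4v8, igl4v9 and igl4v10) did not follow it: they summed to 48.7, 12.9 and 24.5 TPM in the heterozygous pools, against 2.63, 11.0 and 8.45 TPM in the wild-type pools. The ratio of igl4 variable to igl4c1 TPM was thus 3.86, 2.67 and 2.90 in the heterozygous pools, against 1.81, 0.297 and 0.520 in the wild-type pools. The part of egg transcripts in the igl4c1 values was not tested.

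Light chain make-up differed between the genotypes. igic1s1 held 44.7%, 35.6% and 37.4% of light chain constant TPM in the heterozygous pools, against 18.2%, 17.6% and 15.5% in the wild-type pools. igl1c3 held 43.7%, 54.7% and 53.9% in the heterozygous pools, against 74.4%, 55.9% and 74.3% in the wild-type pools. In neither gene did the groups overlap, though for igl1c3 the nearest pools were close. The shares of a pool sum to 100%, so they are not independent of each other. Set against igl1c3 directly, igic1s1 was at 1.02, 0.651 and 0.695 times its level in the heterozygous pools, against 0.245, 0.315 and 0.208 times in the wild-type pools. The ratio of igl3c3 to igl1c3 did not overlap either, at 0.237, 0.145 and 0.124 in the heterozygous pools, against 0.0755, 0.102 and 0.0725 in the wild-type pools. Set against ighm, igl1c3 was at 0.828, 0.977 and 1.23 times its level in the heterozygous pools and 1.49, 2.48 and 2.12 times in the wild-type pools. The ratio of igic1s1 to ighm overlapped, at 0.636 to 0.853 in the heterozygous pools and 0.365 to 0.781 in the wild-type pools.

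**Figure D2:**
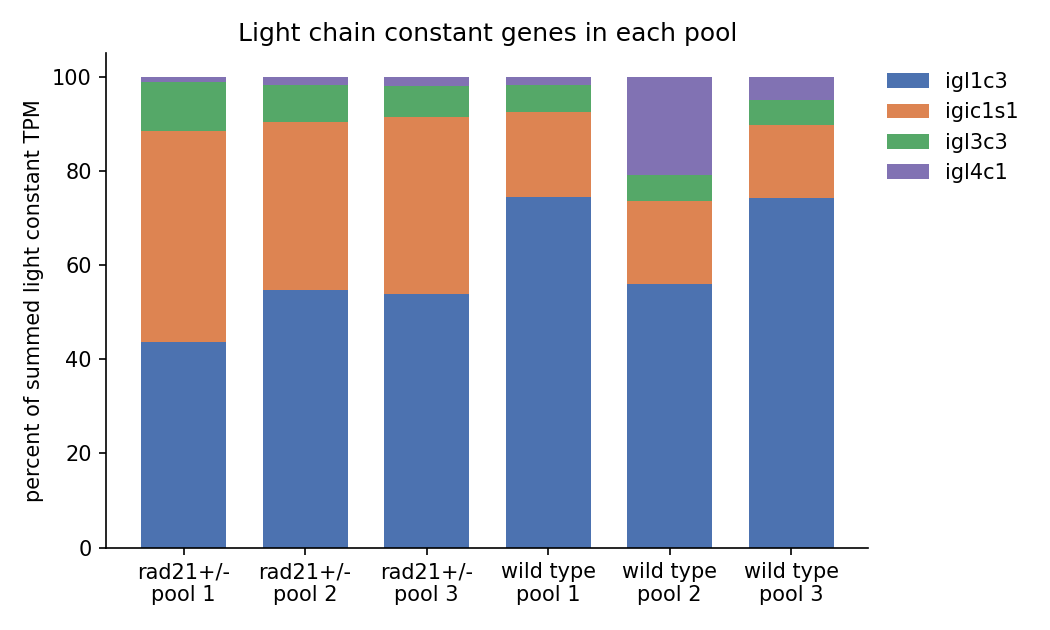
Percent of summed light chain constant TPM held by each of the 4 genes in each pool (3 rad21+/- pools left, 3 wild-type pools right). igic1s1 takes at least 35.6% in each heterozygous pool and at most 18.2% in each wild-type pool, and igl4c1 stands out in wild-type pool 2 with 20.8%.

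Joining segments are very short, and the number of reads behind their values is not known. Of the 7 rows, 3 (ighj1-2, ighj2-1 and ighj2-4) were listed at 0 in all 6 libraries. ighj2-3 had 16.0, 6.17 and 11.2 TPM in the heterozygous pools, against 0, 0 and 4.14 TPM in the wild-type pools, without overlap (log2 fold change 2.72, limma adjusted p = 0.16). ighj2-2 had 45.7, 20.4 and 8.00 TPM in the heterozygous pools, against 1.63, 0 and 8.81 TPM in the wild-type pools. ighj2-5 had 41.0, 17.2 and 5.78 TPM in the heterozygous pools, against 0, 1.91 and 8.58 TPM in the wild-type pools. Both overlapped, because wild-type pool 3 exceeded heterozygous pool 3 (log2 fold changes 2.82 and 2.51, limma adjusted p = 0.24 and 0.29). ighj1-1, of the zeta region, had 0, 1.51 and 2.37 TPM in the heterozygous pools, against 0, 2.44 and 0 TPM in the wild-type pools, which showed no order by genotype. Joining segments together summed to 103, 45.3 and 27.3 TPM in the heterozygous pools, against 1.63, 4.35 and 21.5 TPM in the wild-type pools.

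Heavy chain variable segments were many and individually low. Their sum was 332, 94.7 and 118 TPM in the heterozygous pools, against 27.4, 33.9 and 80.6 TPM in the wild-type pools. Of the 39 rows, 17 had all 3 heterozygous pools above all 3 wild-type pools, 1 (ighv6-2) had them all below, 21 overlapped and 1 of these, ighv14-1, was listed at 0 throughout. Over the 60 members of all classes, 27 lay above without overlap and 1 below, where of all 32057 listed genes 2885 lay above and 3315 below. Among the 45 members high enough to be tested, 25 lay above and 0 below, where 11.9% of the 16537 tested genes lay above and 9.79% below. Of these 25, 5 (ighv11-1, ighv11-2, ighv5-1, ighv8-2 and igl3v3) reached the minimum of 1 TPM in heterozygous pools alone and so had to lie above. Others, among them ighv5-3, ighv1-1, ighv1-2, ighv4-5, ighv8-4 and ighj2-3, reached it in wild-type pool 3 but in no other wild-type pool. These met the filter only with the heterozygous pools, and the count is a description.

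ighv5-3 was the 1 member that passed the threshold. It rose in the heterozygotes, at 5.38, 4.41 and 4.07 TPM, against 0.235, 0.445 and 1.22 TPM in the wild-type pools. Of the wild-type pools only pool 3 reached 1 TPM, so ighv5-3 met the filter only with the heterozygous pools. The 95% interval of its log2 fold change of 1.82 (standard error 0.26) ended at 2.44 and began above 1 (limma adjusted p = 0.029). The call was lost without any 1 heterozygous pool and without wild-type pool 2 (limma adjusted p from 0.090 to 0.102), and with a pseudocount of 0.1 (0.061), without a filter (0.087) or with a minimum of 0.1 TPM (0.0503), while the log2 fold change stayed between 1.64 and 2.07 when any 1 library was left out.

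The heavy chain variable segments of highest mean level included ighv2-1, at 37.7, 8.79 and 13.5 TPM in the heterozygous pools, against 1.63, 2.05 and 4.23 TPM in the wild-type pools (log2 fold change 2.34, limma adjusted p = 0.13). ighv1-2 had 31.0, 9.10 and 8.22 TPM in the heterozygous pools, against 0.749, 0.794 and 3.03 TPM in the wild-type pools. With 1 added to TPM its log2 fold change was the largest of the class, at 2.63 (limma adjusted p = 0.10). By ratio of means other rows of the class stood above its 10.6-fold, among them ighv8-4 at 12.6-fold. ighv9-1 had 34.2, 7.35 and 7.98 TPM in the heterozygous pools, against 3.54, 3.78 and 4.49 TPM in the wild-type pools (log2 fold change 1.49, limma adjusted p = 0.29). ighv2-1, ighv1-2 and ighv9-1 did not overlap between the genotypes. ighv1-1 averaged 9.37 ± 6.95 TPM in the heterozygotes and 1.49 ± 1.59 TPM in the wild type, and did not overlap either (SD, n = 3 each, log2 fold change 2.02, limma adjusted p = 0.21).

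Other abundant segments overlapped. ighv6-1, the leading segment of every wild-type pool, had 19.7, 7.53 and 7.96 TPM in the heterozygous pools, against 3.57, 4.32 and 9.68 TPM in the wild-type pools (log2 fold change 0.87, limma adjusted p = 0.43). ighv4-1 had 18.4, 5.48 and 7.77 TPM in the heterozygous pools, against 1.54, 2.10 and 7.01 TPM in the wild-type pools (log2 fold change 1.38, limma adjusted p = 0.33). In both, wild-type pool 3 reached into the heterozygous range.

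For a few segments the estimate was near 0 or negative. ighv7-1 had 1.75, 2.59 and 1.65 TPM in the heterozygous pools, against 1.93, 1.57 and 4.69 TPM in the wild-type pools (log2 fold change -0.24, limma adjusted p = 0.74). ighv1-3 had 0.672, 1.45 and 1.80 TPM in the heterozygous pools, against 0.276, 0.523 and 5.86 TPM in the wild-type pools (log2 fold change -0.07, limma adjusted p = 0.96). Without wild-type pool 3, the highest pool for both, the log2 fold changes were 0.11 for ighv7-1 and 0.69 for ighv1-3. ighv6-2, picked out after its values were seen and too low to be tested, was at 0.129, 0.527 and 0.291 TPM in the heterozygous pools, against a lowest of 0.545 and a highest of 1.47 TPM in the wild-type pools. At the other end, ighv8-2, also picked out after its values were seen, had 12.2, 1.19 and 3.01 TPM in the heterozygous pools and was listed at 0 in each wild-type pool.

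Light chain variable segments were few, and all 8 were tested. Their sum was 511, 96.1 and 162 TPM in the heterozygous pools, against 23.3, 44.5 and 71.1 TPM in the wild-type pools. Of the 8, 6 lay above without overlap, where 11.9% of all tested genes did. With 1 added to TPM, igl3v1 had the largest log2 fold change of all tested members, 3.19 (95% interval from 1.70 to 4.69, limma adjusted p = 0.079). That rank depends on the added value. With 0.1 added, the joining segments ighj2-3 (4.90), ighj2-2 (4.09) and ighj2-5 (3.74) stood above igl3v1 (3.51). igl3v1 had 92.6, 24.3 and 38.4 TPM in the heterozygous pools, against 1.48, 4.30 and 8.29 TPM in the wild-type pools. Every heterozygous pool thus exceeded every wild-type pool. igl3v4 averaged 56.7 ± 56.4 TPM in the heterozygotes and 6.40 ± 3.75 TPM in the wild type (SD, n = 3 each, limma adjusted p = 0.21). igl3v2 averaged 24.7 ± 26.7 TPM in the heterozygotes and 3.11 ± 3.07 TPM in the wild type (SD, n = 3 each, limma adjusted p = 0.25). Neither overlapped, and heterozygous pool 1 alone carried most of the spread. The most abundant, igl3v5, had 183, 33.4 and 51.2 TPM in the heterozygous pools, against 15.1, 21.1 and 36.9 TPM in the wild-type pools, which overlapped (log2 fold change 1.54, limma adjusted p = 0.33). Of the igl4 cluster, igl4v8 had 33.8, 10.2 and 18.1 TPM in the heterozygous pools, against 1.93, 8.19 and 5.63 TPM in the wild-type pools (log2 fold change 1.79, limma adjusted p = 0.23). igl4v9 had 12.2, 1.77 and 3.68 TPM in the heterozygous pools, against 0.576, 1.71 and 1.47 TPM in the wild-type pools (log2 fold change 1.34, limma adjusted p = 0.33), a gap of less than 0.1 TPM between the nearest pools. The lowest pair were igl3v3, with 1.63 to 10.7 TPM in the heterozygous pools and 0.0908 to 0.570 TPM in wild-type pools, and igl4v10, with 0.916 to 2.75 TPM in the heterozygous pools and 0.129 to 1.35 TPM in the wild-type pools. Of these igl4v10 overlapped and igl3v3 did not, but igl3v3 reached 1 TPM in heterozygous pools alone and so had to lie above.

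Of the 60 members, 45 reached 1 TPM in at least 3 libraries and were tested. Of the remaining 15, 4 were at 0 throughout and 11 were detected, at up to 5.83 TPM in a single pool. The counts that follow include the 5 members that reached 1 TPM in heterozygous pools alone. They also include those that met the minimum only with these pools, and are a description too. In the fit 1 member was called, higher in the heterozygotes, where 1.37% of the 16537 tested genes were called in either direction, 0.810% as higher and 0.562% as lower. At an unadjusted p under 0.05, 29 members were higher and 0 lower in limma, where 7.12% of tested genes were higher and 7.88% lower. The log2 fold change was positive in 42 of the 45, against 48.1% of tested genes, and at least 1 in 31, against 3.76%. The median was 1.54 for the tested members and -0.02 for all tested genes. By class the median was 1.38 for 27 heavy chain variable segments, 1.87 for 8 light chain variable segments, 2.62 for 4 joining segments, 1.55 for 4 light chain constant genes and 1.30 for the 2 heavy chain constant genes. The 1 added to TPM shrinks the fold changes of low rows. With 0.5 and 0.1 added, the median of the tested members was 1.91 and 2.12. The classes differ in TPM level, so the order of their medians is not a comparison of the classes. Members share cells and libraries, so these counts do not add up as independent evidence.

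**Figure D3:**
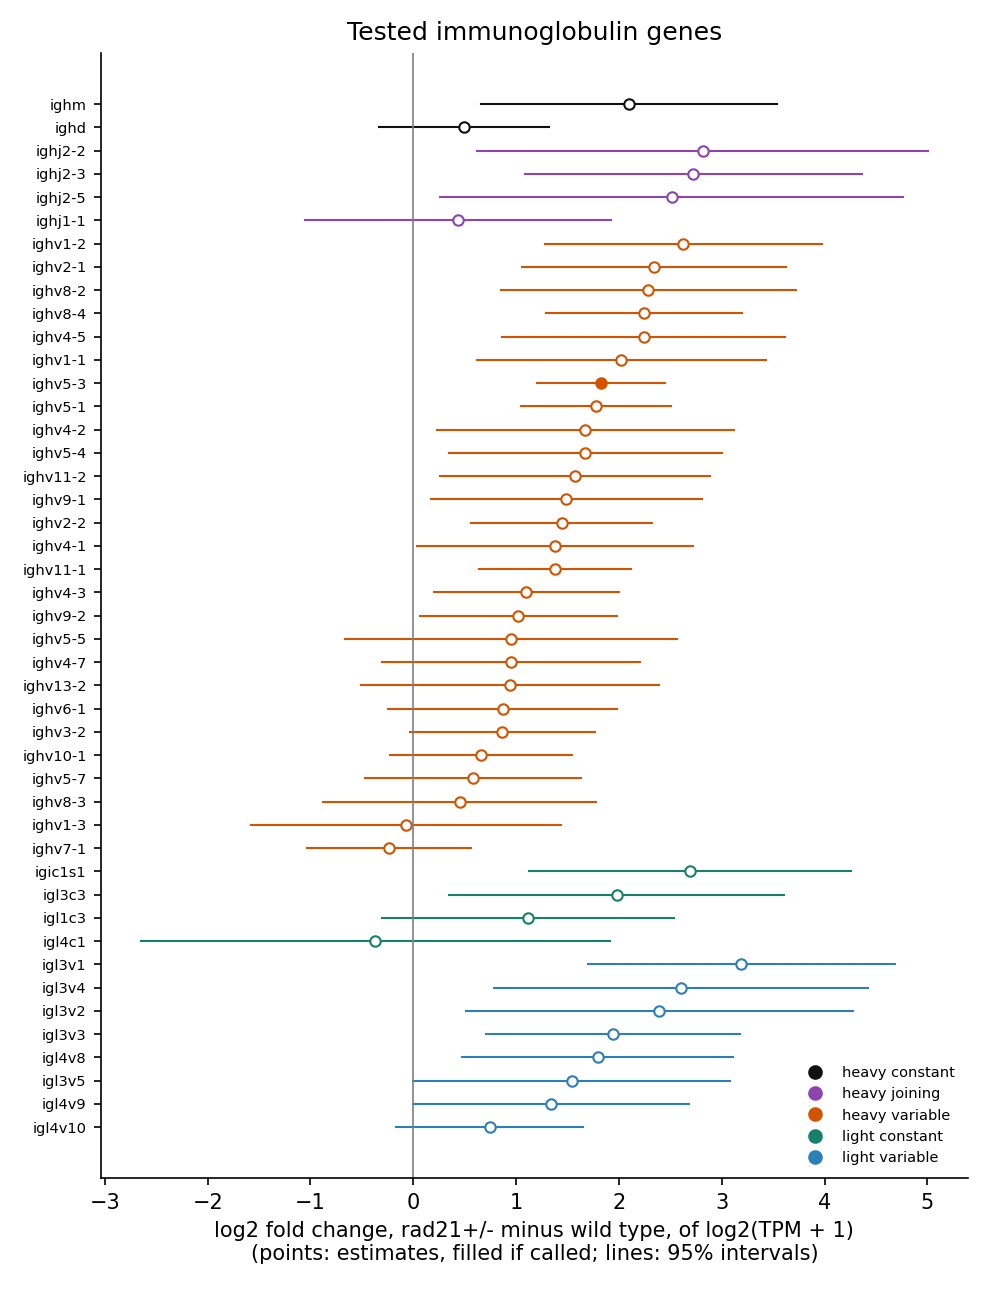
Log2 fold change, rad21+/- minus wild type, on the log2(TPM + 1) scale for the 45 tested members by class, with 95% intervals from limma and a filled point where the adjusted p is under 0.05. ighv5-3 is the only filled point, and igl4c1, ighv7-1 and ighv1-3 are the 3 members with negative estimates.

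The contrast of variable segments with constant regions asked whether both parts of the message differed by the same factor. For the heavy chain the factors were close. Summed variable over summed constant TPM was 0.609, 0.610 and 0.632 in the heterozygous pools, against 0.666, 0.819 and 0.679 in the wild-type pools. The ratio averaged 0.617 ± 0.0131 in the heterozygotes and 0.721 ± 0.0846 in the wild type (SD, n = 3 each), so the groups did not overlap. The ratio of these means was -0.23 on the log2 scale, where summed variable TPM stood at 1.94 and summed constant TPM at 2.14. Leaving out any 1 library kept the log2 ratio of the means between -0.28 and -0.13, with -0.13 reached without wild-type pool 2, whose ratio was the highest.

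For the light chain, variable TPM was larger relative to constant TPM in the heterozygotes, at 0.499, 0.350 and 0.385, against 0.289, 0.250 and 0.214 in the wild-type pools. No variable segment of the igl1 cluster and none of the iota cluster is among the members, so this ratio sets igl3 and igl4 segments against a sum led by igl1c3 and igic1s1. Within the igl3 cluster alone, summed variable TPM over igl3c3 was 4.37, 3.81 and 4.89 in the heterozygous pools, against 4.56, 3.30 and 3.50 in the wild-type pools, which overlapped. Within the igl4 cluster the ratios given above did not overlap. Wild-type pool 1, not egg-rich, had 1.81, below the lowest heterozygous pool at 2.67, and the egg-rich pools had 0.297 and 0.520. The log2 ratio of the means was 0.71 for all light chain rows, 1.27 without the leading segment of each pool, 0.20 within igl3 and 1.85 within igl4. No p is given for these sums and ratios, because the members were chosen with earlier results of these data known.

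Light over heavy constant TPM was 1.88, 1.77 and 2.25 in the heterozygous pools, against 1.96, 4.30 and 2.80 in the wild-type pools, and overlapped. Light over heavy variable TPM was 1.54, 1.01 and 1.37 in the heterozygous pools, against 0.849, 1.31 and 0.882 in the wild-type pools, and overlapped too.

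**Figure D4:**
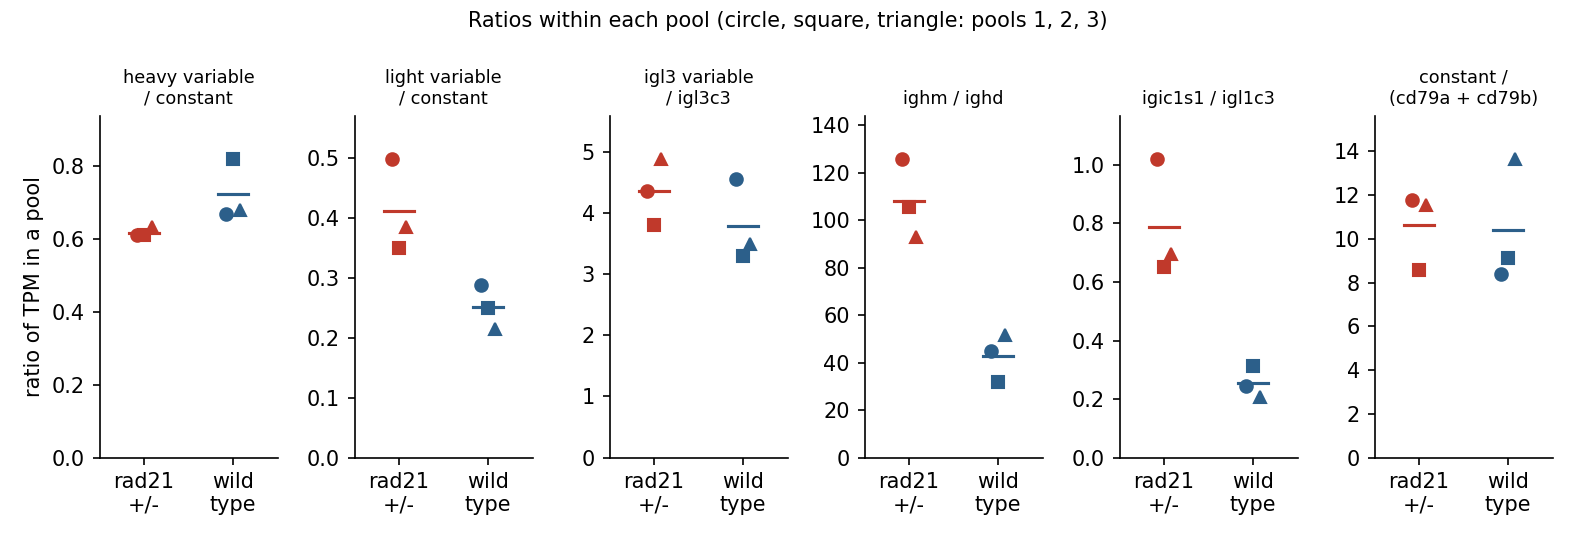
Ratios of TPM within each pool, rad21+/- left of wild type in each panel, with horizontal bars at the means and axes from 0. The heavy variable to constant ratio runs from 0.609 to 0.632 in heterozygous pools and from 0.666 to 0.819 in wild-type pools, the light chain ratio, ighm over ighd and igic1s1 over igl1c3 separate the genotypes, and the igl3 and cd79 ratios overlap.

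The make-up of the variable segments, taken as each row's percent of the summed variable TPM of its chain, was more alike within a genotype than between genotypes. Over the 39 heavy chain rows, Pearson's r of these shares was 0.896 to 0.906 among the 3 pairs of heterozygous pools, 0.715 to 0.869 among the 3 wild-type pairs and 0.516 to 0.675 among the 9 pairs between genotypes. Over the 8 light chain rows it was 0.935 to 0.971, 0.955 to 0.988 and 0.768 to 0.908 for the same kinds of pairs. These correlations are across rows of libraries that differ in immunoglobulin level, and the number of reads behind each row is not known, so they are given as a description.

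ighv6-1 led the wild-type pools, and ighv2-1 and ighv1-2 the heterozygous ones. ighv6-1 held 5.93%, 7.96% and 6.73% of heavy chain variable TPM in the heterozygous pools, against 13.0%, 12.7% and 12.0% in the wild-type pools. ighv2-1 held 11.4%, 9.29% and 11.4% in the heterozygous pools, against 5.95%, 6.05% and 5.24% in the wild-type pools. ighv1-2 held 9.34%, 9.61% and 6.95% in the heterozygous pools, against 2.73%, 2.34% and 3.76% in the wild-type pools. ighv7-1 held 0.527% to 2.74% in the heterozygous pools, against 7.06%, 4.63% and 5.82% in the wild-type pools. The TPM of ighv7-1 overlapped between the genotypes, while its share did not. In all, 11 of the 39 shares lay above and 4 below without overlap in the heterozygotes, and 24 overlapped. Among those above, ighv8-2, ighv5-1, ighv11-1, ighv11-2 and ighv4-9 were under 1 TPM in every wild-type pool. Among those below, ighv6-2 and ighv4-8 had at most 1.47 TPM in any pool. These shares rest on very low values, and the count is a description. Shares have no counterpart over all genes, and by TPM 11.9% of tested genes lay above and 9.79% below.

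Heavy chain variable TPM was spread over many segments in every pool. The effective number of heavy chain segments (the inverse Simpson number, which equals the number of rows when all are level) was 17.4, 18.7 and 19.0 in the heterozygous pools, against 14.0, 16.1 and 18.7 in the wild-type pools, and overlapped. The leading segment held 11.4%, 9.61% and 11.4% in the heterozygous pools, against 13.0%, 12.7% and 12.0% in the wild-type pools. By family, ighv6 held 5.97%, 8.51% and 6.98% of heavy chain variable TPM in the heterozygous pools, against 15.0%, 16.3% and 13.8% in the wild-type pools. The family ighv2 held 15.3%, 15.2% and 16.0% in the heterozygous pools, against 14.3%, 10.1% and 8.82% in the wild-type pools. The family ighv5 (7 rows) held 11.4%, 13.7% and 10.8% in the heterozygous pools, against 6.83%, 9.38% and 10.6% in the wild-type pools, and ighv11 (2 rows) held 2.43% to 3.51% in the heterozygous pools and at most 1.38% in the wild-type pools. In the wild-type pools ighv11 summed to at most 0.833 TPM, so its share there rests on very low values. The ighv2, ighv5 and ighv11 shares lay above and the ighv6 and ighv7 shares below without overlap, and those of the other families overlapped.

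The light chain was led by the same segment in all 6 pools. igl3v5 held 35.8%, 34.8% and 31.6% of light chain variable TPM in the heterozygous pools, against 64.8%, 47.3% and 51.9% in the wild-type pools. igl3v1 held 18.1%, 25.3% and 23.7% in the heterozygous pools, against 6.36%, 9.67% and 11.7% in the wild-type pools. The effective number of light chain segments was 4.28, 4.36 and 4.57 in the heterozygous pools, against 2.23, 3.47 and 3.13 in the wild-type pools, without overlap.

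**Figure D5:**
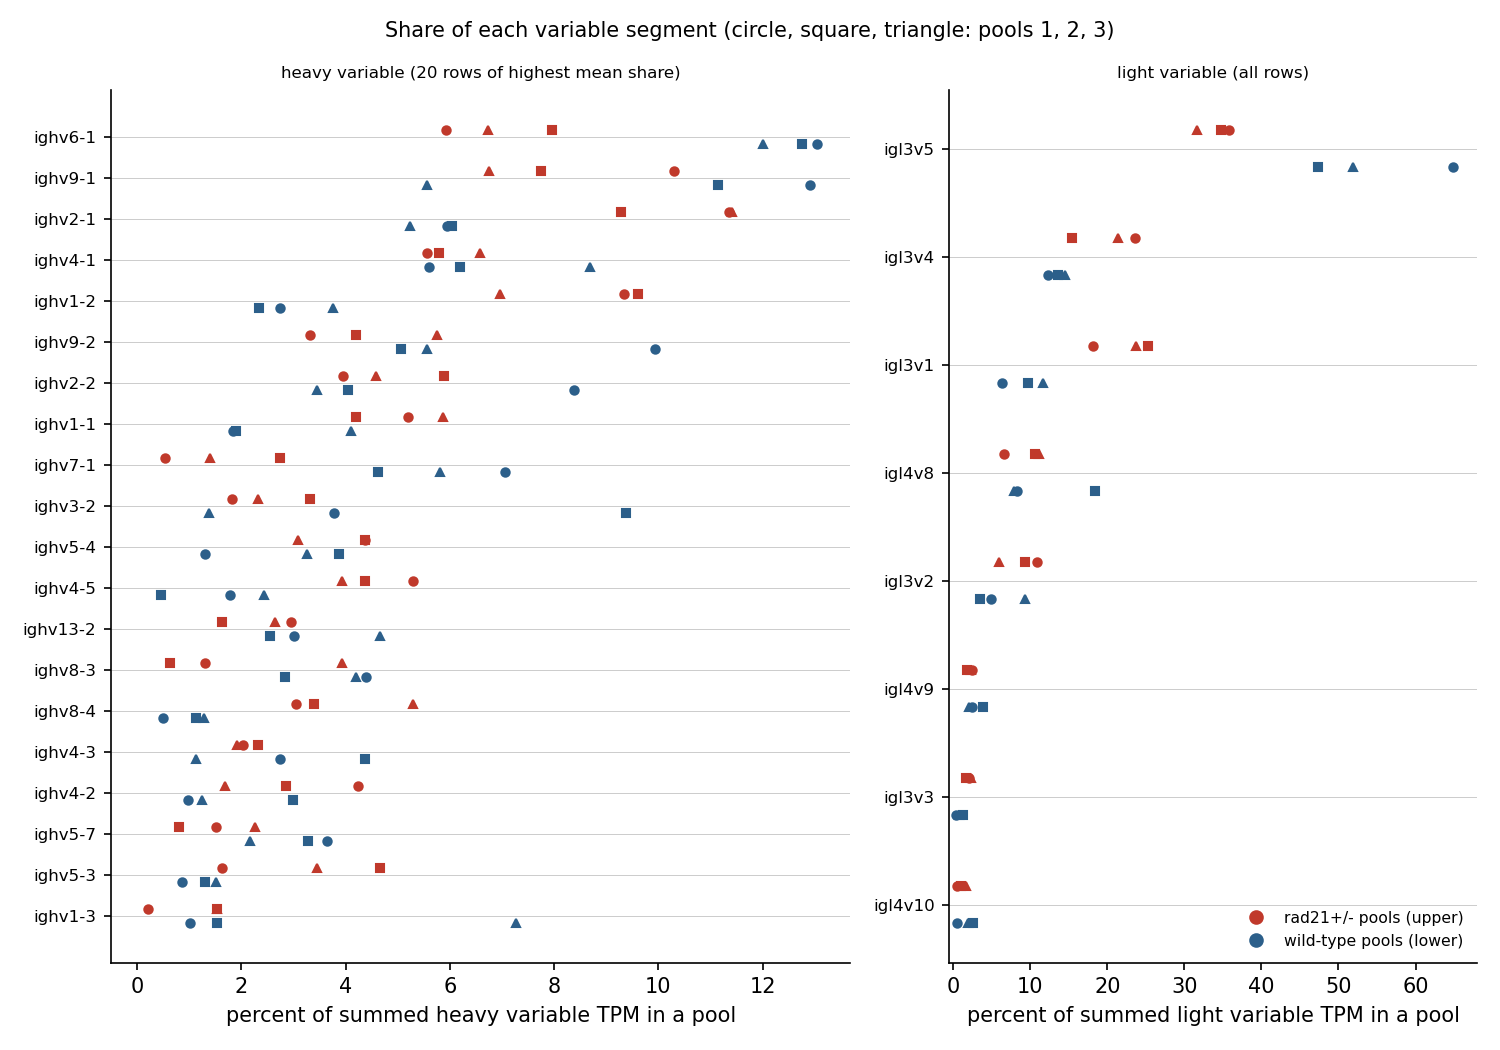
Percent of summed variable TPM of its chain held by each segment in each pool, for the 20 heavy chain segments of highest mean share and all 8 light chain segments (rad21+/- pools in red above wild-type pools in blue on each line). ighv6-1, ighv7-1 and igl3v5 lie lower, and ighv2-1, ighv1-2 and igl3v1 higher, in all 3 heterozygous pools.

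A pair of segments shared a value. ighv9-1 and ighv9-2 had the same value, 4.49 TPM, in wild-type pool 3 to all digits given, while in the other 5 pools they differed. How reads that match several segments were counted is not given in the sources used here, and values of single segments are uncertain for that reason. Whether these rows have near-identical sequence was not tested.

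Other B cell genes were set beside the members. The receptor partners cd79a and cd79b, which carry the signal of the B cell receptor, summed to 133, 50.3 and 52.8 TPM in the heterozygous pools, against 14.5, 24.0 and 33.0 TPM in the wild-type pools, without overlap. Constant region TPM per cd79a and cd79b TPM was 11.8, 8.56 and 11.5 in the heterozygous pools, against 8.41, 9.14 and 13.7 in the wild-type pools, which overlapped. Its mean was 10.6 ± 1.79 in the heterozygotes and 10.4 ± 2.85 in the wild type (SD, n = 3 each). Set against the whole B cell list (16 rows), a denominator chosen after seeing the data, constant region TPM was 3.63, 2.10 and 2.61 in the heterozygous pools, against 1.05, 1.89 and 2.11 in the wild-type pools. That ratio overlapped by a small margin, with means of 2.78 ± 0.781 in the heterozygotes and 1.68 ± 0.561 in the wild type (SD, n = 3 each), so the nearness of the means depends on the denominator. The list itself summed to 432, 205 and 233 TPM in the heterozygous pools, against 117, 116 and 214 TPM in the wild-type pools, which overlapped. Heavy chain variable TPM per cd79a and cd79b TPM overlapped as well, at 1.88 to 2.49 in the heterozygous pools and 1.41 to 2.44 in the wild-type pools. Of 14 tested rows of a B cell list, 0 were called by limma, 6 were higher at an unadjusted p under 0.05 and 14 had a positive fold change, beside 1.37%, 7.12% and 48.1% of all tested genes. cd37, a surface protein of B cells, had 69.95, 36.1 and 45.8 TPM in the heterozygous pools, against 9.93, 14.5 and 23.9 TPM in the wild-type pools (log2 fold change 1.62, limma adjusted p = 0.13). blnk, an adaptor of receptor signalling, averaged 34.5 ± 15.5 TPM in the heterozygotes and 22.2 ± 15.5 TPM in the wild type and overlapped (SD, n = 3 each, limma adjusted p = 0.55). The more abundant SWAP70 row (ENSDARG00000057286), a signalling protein of B cells, averaged 29.6 ± 6.91 TPM in the heterozygotes and 24.7 ± 6.40 TPM in the wild type (SD, n = 3 each, limma adjusted p = 0.66). The other SWAP70 row (ENSDARG00000051819) was picked out after its values were seen. It had 6.81, 4.40 and 4.16 TPM in the heterozygous pools, against 1.58, 2.01 and 3.24 TPM in the wild-type pools, without overlap (log2 fold change 0.91, limma adjusted p = 0.22).

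The counts for the genes found of an antibody secretion list were near those of all genes. Of its 13 symbols, mzb1, tnfrsf13b, tnfrsf17 and sdc1 matched no row, so the counts do not cover them. Of 11 tested rows 0 were called by limma, with 1 higher and 1 lower at an unadjusted p under 0.05 (all tested genes 1.37% called, 7.12% higher and 7.88% lower) and a median log2 fold change of 0.06. XBP1, the regulator of the secretory programme, had 359, 184 and 217 TPM in the heterozygous pools, against 199.6, 397 and 299 TPM in the wild-type pools (limma adjusted p = 0.75). The chaperone HSP90B1 averaged 301 ± 14.7 TPM in the heterozygotes and 279 ± 57.9 TPM in the wild type (SD, n = 3 each). The translocon subunit SEC61B averaged 188 ± 23.1 TPM in the heterozygotes and 299 ± 171 TPM in the wild type, and its partner SSR4 368 ± 20.8 TPM in the heterozygotes and 373 ± 148 TPM in the wild type (SD, n = 3 each). All 4 of these genes were highest in wild-type pool 2, the pool richest in egg transcripts. In wild-type pool 3, the other egg-rich pool, only SEC61B (248 TPM) was above every heterozygous pool, and HSP90B1 (270 TPM) was below each of them. Such genes serve secretion in many cell types. The part of egg transcripts in these values was not tested.

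Of 10 tested genes of V(D)J recombination and antibody diversification, 0 were called by limma, with 2 higher and 1 lower at an unadjusted p under 0.05, beside the same 1.37%, 7.12% and 7.88% of all tested genes. The members of highest mean level, XRCC6 and XRCC5 (the Ku end-binding pair), UNG (ENSDARG00000042527, a uracil glycosylase) and nhej1 (an end-joining factor), had log2 fold changes of -0.06, -0.06, -0.17 and -0.69 (limma adjusted p = 0.91, 0.94, 0.89 and 0.33). Each of them was highest in wild-type pool 2, the pool richest in egg transcripts, at 25.4, 22.8, 34.1 and 26.0 TPM. What egg transcripts contribute to these values was not tested. The recombinase genes, picked out after their values were seen, were low in every pool. RAG1 had 7.18, 1.81 and 3.07 TPM in the heterozygous pools, against 1.49, 1.77 and 2.38 TPM in the wild-type pools, which overlapped (limma adjusted p = 0.46). RAG2 averaged 2.56 ± 1.42 TPM in the heterozygotes and 0.927 ± 0.156 TPM in the wild type, without overlap (SD, n = 3 each, limma adjusted p = 0.27). DCLRE1C, also picked out after its values were seen, did not overlap either (limma adjusted p = 0.26). It had 12.0, 10.1 and 10.7 TPM in the heterozygous pools, against 6.14, 5.47 and 8.34 TPM in the wild-type pools. T cell markers, the other lymphocyte list, summed to 21.7, 15.4 and 15.3 TPM over 8 rows in the heterozygous pools, against 19.8, 15.8 and 18.3 TPM in the wild-type pools, which overlapped. Of these rows TCF7 and cd8a, the latter too low to be tested, lay below in the heterozygotes without overlap, and the others overlapped. Of 6 tested rows 0 were called by limma and 3 had a positive fold change, beside 1.37% and 48.1% of all tested genes.

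Of single libraries, heterozygous pool 1 moved 4 of the 5 class sums most, and wild-type pool 3 moved joining segments most, to 4.29 without it. Without heterozygous pool 1 the log2 ratio of means was 1.35 for summed heavy chain constant TPM (2.14 with it), 1.17 for heavy chain variable (1.94), 0.82 for light chain constant (1.54), 1.48 for light chain variable (2.47) and 1.99 for joining segments (2.67). The median log2 fold change of the tested members was 0.95 without it. That pool also held the most neutrophil transcripts, and B cell markers summed to 432 TPM in it, against 116 to 233 TPM in the other 5 pools. Without wild-type pools 2 and 3, the egg-rich ones, the same ratios were 2.85, 2.73, 2.83, 3.46 and 5.16, with 1 wild-type library left.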

How the data were processed

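Total RNA of whole kidney marrow gave 6 Illumina TruSeq libraries, 3 heterozygous and 3 wild type, per the labels. The submitters' processing notes name build GRCz11 and the tools featureCounts, HISAT2 2.0.4 and FastQC. The authors deposited TPM values, 1 column per library, each summing to 1e+06. The sources used here do not give the annotation, gene lengths, strand setting or handling of multi-mapping reads, and read depth is unknown. Reads of overlapping or antisense genes could therefore be mixed, and a read adds more TPM to a short joining segment than to a long gene. Symbols came from a name table that covered 28988 of 32057 identifiers. No sequences or GRCz11 positions were used.

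Genes with at least 1 TPM in at least 3 libraries (16537) were fitted on log2(TPM + 1) in R 4.3.3 with limma 3.58.1, genotype as the only term and a mean-variance trend. Its two-sided p-values were Benjamini-Hochberg adjusted over all tested genes, with 0.05 as the threshold. Leave-one-out fits kept the same genes. The fit was tried on simulated data with independent genes and no differences in make-up between pools, so that trial does not cover such differences. Sums, shares and ratios of TPM are descriptions. Marker lists matched symbols with or without a final a or b. Named genes were the constant genes, the 6 highest rows per class, called members, the 4 largest changes per direction, and up to 4 of the highest rows per B cell list. The members, lists and tests were chosen with earlier results of these data known. Nothing says that pools came from separate clutches, so p-values measure the spread between these pools. A planned promoter motif search was not run, as no promoter sequence was used here.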

Additional observations from a re-analysis of the deposited data

How the results depend on the processing

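Fold changes of named members kept their sign under most settings, and calls moved with many of them. All genes called numbered 227 (134 higher, 93 lower), and 132 with no filter, 397 at an adjusted p under 0.1, 25 with a replicate block, 90 to 1088 with 1 library left out (1088 without wild-type pool 1, 144 without wild-type pool 2, 91 without wild-type pool 3, and 127, 126 and 90 when heterozygous pool 1, 2 or 3 was dropped) and 53 without wild-type pools 2 and 3. Quantile normalization called 260, of which 183 were higher. Pseudocounts of 0.1 and 0.5 called 224 and 239, median of ratios scaling 263, globin and mitochondrial removal 255, and no variance trend 204. Library weights, in a fit that did not converge, called 7397. Called members numbered 1, and 4 at an adjusted p under 0.1 and 2 with a pseudocount of 0.5. They numbered 3 with median of ratios scaling, quantile normalization or globin and mitochondrial genes removed, and 24 with weights (21 higher, 3 lower). They numbered 0 in limma without a filter, with a minimum of 0.1 TPM, with the block and without wild-type pools 2 and 3 (28, 31, 23 and 23 at an unadjusted p under 0.05), and 0 to 3 with 1 library left out: 3 without wild-type pool 1, 2 without wild-type pool 3, and 0 without heterozygous pool 1 or 3 or wild-type pool 2 (23, 26 and 22 at an unadjusted p under 0.05). For ighv5-3 the adjusted p was 0.061 with a pseudocount of 0.1, 0.087 without a filter, 0.0503 with a minimum of 0.1 TPM, 0.15 with the block and 0.085 without wild-type pools 2 and 3. The unadjusted p of ighv5-3 in limma was 0.00025 in the main fit, 0.00068 without a filter and 0.00037 with a minimum of 0.1 TPM. Looser filters also add tests, and the cause of the lost call was not tested. Weights moved the median log2 fold change of all genes to -0.16 and leaving out wild-type pools 2 and 3 to 0.15. Deviations of same-numbered pools correlated at -0.27, 0.12 and -0.13, and those of differently numbered pools at -0.33 to 0.37. With 3 pools per genotype these values cannot show whether replicate numbers pair the pools.

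Signs turned for ighv1-3 (0.23 and 0.020 with pseudocounts of 0.1 and 0.5, -0.52 to 0.69 with 1 library left out, 0.82 without wild-type pools 2 and 3), ighv7-1 (-0.46 to 0.11, and 0.017), igl4c1 (-1.50 to 0.48, and 1.89) and, with weights, for ighd (-0.12), ighv6-1 (-0.13) and igl1c3 (-0.21). On the log2 scale of ratios of means, joining segments ran from 1.99 to 4.29 with 1 library left out and stood at 5.16 without wild-type pools 2 and 3, where light chain constant TPM stood at 2.83, the light to heavy constant ratio at 0.0046 (-0.62 with all pools) and the effective numbers of segments at 0.39 for heavy and 0.98 for light chains. The light chain variable to constant ratio was 0.71, and 1.27 without the leading segment and 0.20 within igl3 and 1.85 within igl4, both chosen after seeing the data. Constant TPM per cd79a and cd79b TPM was 0.03, and -0.10 to 0.28 with 1 library left out, and 0.72 with the whole B cell list as the denominator, also chosen after seeing the data.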
